A study of Homo sapiens with 8 samples.

Results

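The antiviral interferon-stimulated genes (ISGs) were examined as a list of 38 gene symbols, looked up by name in the expression files of 2D human intestinal epithelial cells (hIECs). The files held 60558 genes, and 37 of the 38 listed ISGs had a row in them. The remaining gene was not analysed here. The cells were made by differentiation of H9, a long-established line of human embryonic stem cells, and fell into 4 groups of 2 libraries each, which the RNA-seq study used to compare the response to particulate matter in normal and inflamed epithelium. Normal hIECs received neither cytokines nor particles. Normal hIECs with PM10 were exposed to 100 μg/ml of PM10, airborne particulate matter of the coarse size class, for the last 7 days. Inflamed hIECs received 50 ng/ml interferon γ (IFNγ) and 50 ng/ml tumor necrosis factor α (TNFα) for 10 days, from day 4 to day 14 of differentiation. Inflamed hIECs with PM10 received both treatments. In the sample labels, every group carries a treatment of 10 days, also those without cytokines. All cells came from 1 cell line, and the labels do not say whether the 2 libraries of a group came from separate cultures, so the p-values below measure the spread between these libraries.

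Interferons are secreted proteins that signal through cell-surface receptors, JAK kinases and STAT transcription factors. Type I and type III interferons activate a complex of STAT proteins and IRF9 that binds interferon-stimulated response elements (ISREs), whereas IFNγ, the type II interferon, acts mainly through gamma-activated sites (GAS) and induces IRF1, which in turn can bind ISREs. The antiviral ISGs encode the proteins these signals raise against viruses, among them sensors of viral RNA, nucleases, membrane proteins that block entry or release, and the ubiquitin-like protein ISG15. In the intestine, the epithelium is the first layer that enteric viruses meet.

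Expression was given as FPKM, fragments scaled to the transcript's length and to the mapped fragments of the library, so levels of different genes are compared per length. Read counts were not part of these files, and the sequencing depth is therefore unknown. The lowest value above 0 in a library lay between 0.164 and 0.228 FPKM, and 16547 to 18926 genes were above 0. Genes of the mitochondrial genome took 15.5% to 24.2% of the summed FPKM. The highest share was that of normal replicate 2, and normal replicate 1 had 17%, so the normal libraries differed in this share more than those of any other group. Differences were taken on log2(FPKM + 1), which understates the change of weakly expressed genes, and limma was fitted across the 14206 genes that reached 1 FPKM in 2 or more libraries. A gene was called when its adjusted p-value (limma, Benjamini-Hochberg) was under 0.05. For 1 gene taken alone, the smallest two-sided p-value that an exact permutation of 2 against 2 libraries allows is 0.333.

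The cells are labelled hIECs, but markers that define intestinal epithelium were largely absent. Of 17 such markers, 8 were listed at 0 in all 8 libraries (CDX2, CHGA, CLDN3, CLDN7, KRT20, LYZ, MUC2 and VIL1), and 12 stayed below 1 FPKM in every library. CDH1, which encodes E-cadherin, was above 0 in 1 library only. The keratins KRT8 and KRT18 were abundant and made up most of the summed epithelial list, which reached 624 to 676 FPKM without cytokines and 308 to 371 FPKM with them. Of the 5 markers tested in inflamed against normal hIECs, 3 were lower (KRT8, KRT18 and SOX9), LGR5 was higher (log2 difference 0.97) and TJP1 was not called (0.10). All 11 markers of mesenchyme were present, with sums of 4420 to 5860 FPKM. The 4 endothelial and 3 pluripotency markers were at 0 throughout. Of 7 leukocyte markers, 5 were at 0, and the sum of the list was at most 1.83 FPKM. Neuronal markers summed to 177 to 200 FPKM without cytokines and 104 to 126 FPKM with them. These shifts moved with the cytokine groups, and their part in the ISG values was not tested. Exons of 16 of the 37 ISGs overlap another gene in GENCODE release 44, and since the libraries do not keep strand, their values can hold fragments of that gene. In bulk RNA, fewer cells of a type and less RNA per cell cannot be told apart.

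Cytokine treatment raised nearly the whole list. Of the 37 ISGs, 35 reached the minimum for testing, and 34 of these (97.1%) were higher in inflamed than in normal hIECs, while none was lower. Among all tested genes, 56.2% were called in this comparison, 25.9% higher and 30.3% lower. The median log2 difference of the 35 ISGs was 1.94, against -0.03 for all tested genes. It was at least 1 for 30 ISGs, at least 2 for 17 and at least 3 for 7. The ISG that was not called was IFITM2, a membrane protein that blocks viral fusion, and it was called lower without normal replicate 1 (log2 difference -0.36, adjusted p = 0.00387). MX2 and OASL were below the minimum. They were listed at 0 in all 4 libraries without cytokines and above 0 in all 4 with them, at 0.61 to 0.97 FPKM for MX2 and 0.33 to 0.50 FPKM for OASL. In 36 of the 37 ISGs, both inflamed libraries lay above both normal libraries, and IFITM2 overlapped. How often this held over all genes was not counted, so it is not read as a trait of the list.

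**Figure D1:**
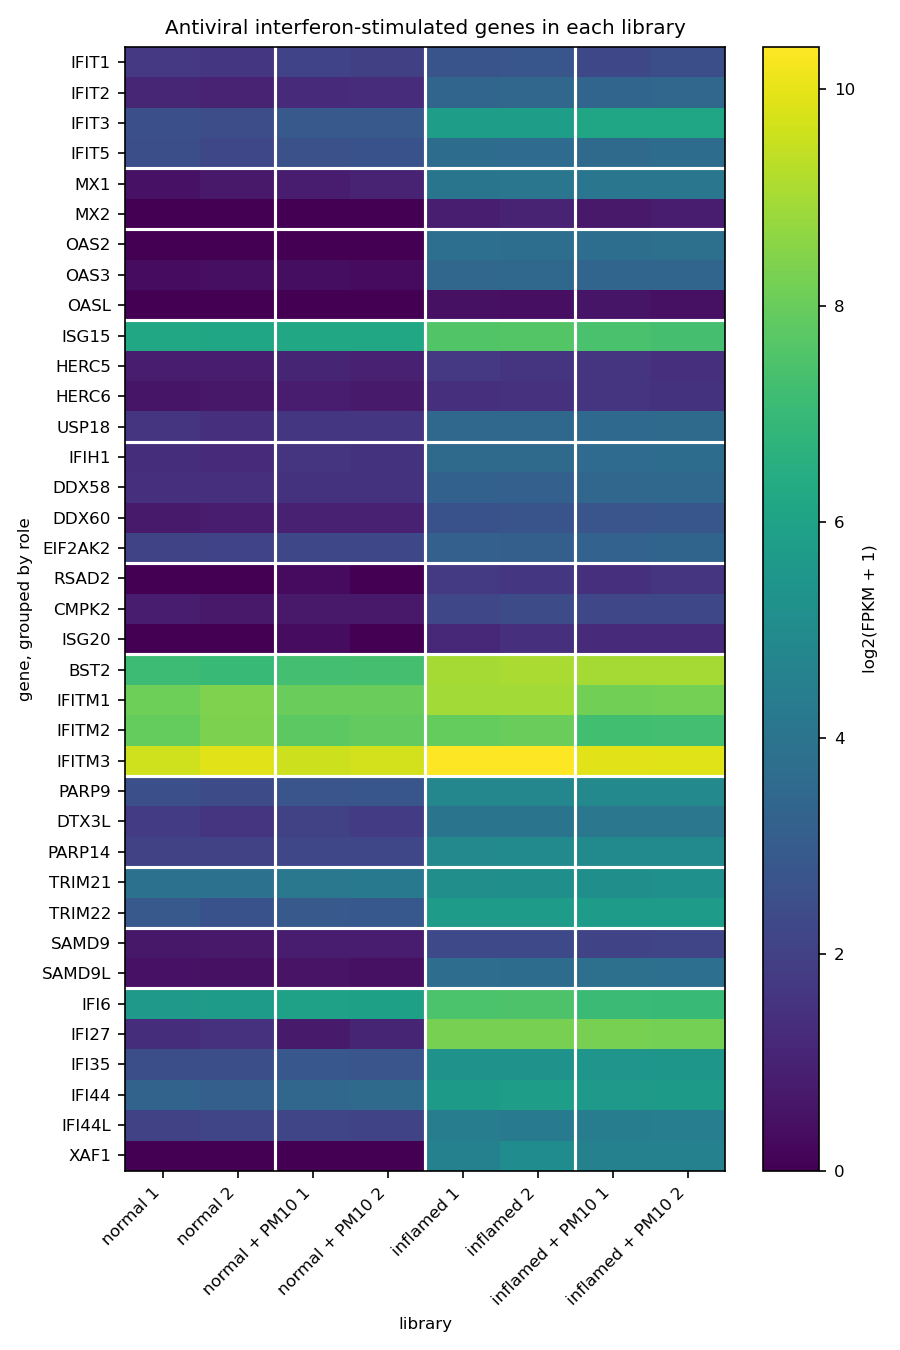
Level of each of the 37 ISGs (rows, grouped by role with white lines) in each of the 8 libraries (columns), as log2(FPKM + 1) on the color scale. The 4 libraries with cytokines are brighter than the 4 without in all rows but IFITM1, IFITM2 and IFITM3, and IFITM3 is the brightest row in every library.

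The list as a whole also took a larger share of the transcriptome. Its summed FPKM was 0.373% to 0.418% of the library total in the 4 libraries without cytokines and 0.748% to 0.907% in the 4 with them. Most of the sum without cytokines came from IFITM1, IFITM2 and IFITM3, which made up 76.7% to 83.5% of it. They made up 55.1% to 55.3% in inflamed hIECs and 46.5% to 46.6% in inflamed hIECs with PM10. Leaving these 3 genes out, the list summed to 323 to 381 FPKM without cytokines and to 1615 to 1704 FPKM with them.

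The promoters of 8 ISGs are shown because they belong to genes that the cytokine and PM10 results turn on and hold letters like those of the ISRE or GAS. Sequences were taken from RefSeq windows of 250 bases before to 50 bases after each transcription start (GRCh38.p14). An ISRE-like motif was searched as GAAA, any 2 bases and GAAA again, and a GAS-like motif as TTCNNNGAA, where N is any base, each on both strands. The stretches below are the 170 bases before the start, 5′ to 3′ on the strand of the gene, with the bases of either motif in capitals. They belong to IFI27 (chr14:94110566-94110735, plus strand), BST2 (chr19:17405631-17405800, minus strand), ISG15 (chr1:1013327-1013496, plus strand), IFIT1 (chr10:89392453-89392622, plus strand), IFIT3 (chr10:89327827-89327996, plus strand), IFI6 (chr1:27672193-27672362, minus strand), IFITM1 (chr11:313870-314039, plus strand) and IFITM3 (chr11:320861-321030, minus strand). In IFITM1 the last ISRE-like match runs past the start and is shown up to it.
IFI27: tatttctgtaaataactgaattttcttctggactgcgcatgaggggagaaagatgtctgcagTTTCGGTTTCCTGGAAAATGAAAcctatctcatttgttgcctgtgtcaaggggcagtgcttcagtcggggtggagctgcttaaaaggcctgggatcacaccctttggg
BST2: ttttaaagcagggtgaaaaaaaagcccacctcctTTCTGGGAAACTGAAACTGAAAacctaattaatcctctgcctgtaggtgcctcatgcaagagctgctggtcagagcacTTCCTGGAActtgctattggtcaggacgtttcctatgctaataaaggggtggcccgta
ISG15: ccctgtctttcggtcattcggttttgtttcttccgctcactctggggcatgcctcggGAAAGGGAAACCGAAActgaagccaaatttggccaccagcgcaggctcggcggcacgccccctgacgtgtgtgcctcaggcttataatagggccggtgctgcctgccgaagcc
IFIT1: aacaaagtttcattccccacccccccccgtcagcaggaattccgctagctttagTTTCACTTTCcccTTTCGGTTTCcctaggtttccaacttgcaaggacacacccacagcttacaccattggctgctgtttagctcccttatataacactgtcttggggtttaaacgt
IFIT3: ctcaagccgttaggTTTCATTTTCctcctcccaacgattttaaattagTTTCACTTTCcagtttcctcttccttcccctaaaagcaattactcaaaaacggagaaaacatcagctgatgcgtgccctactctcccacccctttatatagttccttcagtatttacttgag
IFI6: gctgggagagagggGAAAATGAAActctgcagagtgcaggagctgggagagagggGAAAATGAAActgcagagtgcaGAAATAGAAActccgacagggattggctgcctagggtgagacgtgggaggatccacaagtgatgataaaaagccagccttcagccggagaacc
IFITM1: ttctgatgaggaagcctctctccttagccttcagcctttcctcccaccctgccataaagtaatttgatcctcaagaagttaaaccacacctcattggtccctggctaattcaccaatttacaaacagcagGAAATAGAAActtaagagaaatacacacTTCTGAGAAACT
IFITM3: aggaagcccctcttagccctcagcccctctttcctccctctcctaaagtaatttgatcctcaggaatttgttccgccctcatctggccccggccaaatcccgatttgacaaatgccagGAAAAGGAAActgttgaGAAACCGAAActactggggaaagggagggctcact

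Of the 37 ISGs, 30 had a promoter in the RefSeq table, with 40 windows in all. IFIT2, MX2, OAS2, OASL, USP18, IFITM2 and TRIM22 had none. The ISRE-like motif was in 24 of the 30 ISGs (80.0%) and in 28 of their 40 windows (70.0%), whereas it was in 3.57% of all 35116 windows and in 4.38% of the 27305 genes of the table. In 15 ISGs it matched at least 2 times. HERC6, DDX58, CMPK2, SAMD9L, IFI35 and XAF1 had no match in this window. The GAS-like motif was in 7 ISGs (23.3%), namely MX1, DDX60, BST2, IFITM1, PARP14, IFI27 and IFI35, against 9.38% of the genes of the table. It was in 20% of the ISG windows, against 7.66% of all windows. Both motifs were in 6 ISGs and neither was in 5. The 2 motifs shared bases in MX1, BST2, IFI27 and IFITM1, the last 3 of which can be read in the stretches above. The median log2 difference between inflamed and normal hIECs was 1.85 for the 24 ISGs with the ISRE-like motif and 2.32 for the 6 without. For the GAS-like motif it went the other way, with 2.83 for the 7 ISGs with it and 1.705 for the 23 without. A match is a description of the letters only.

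**Figure D2:**
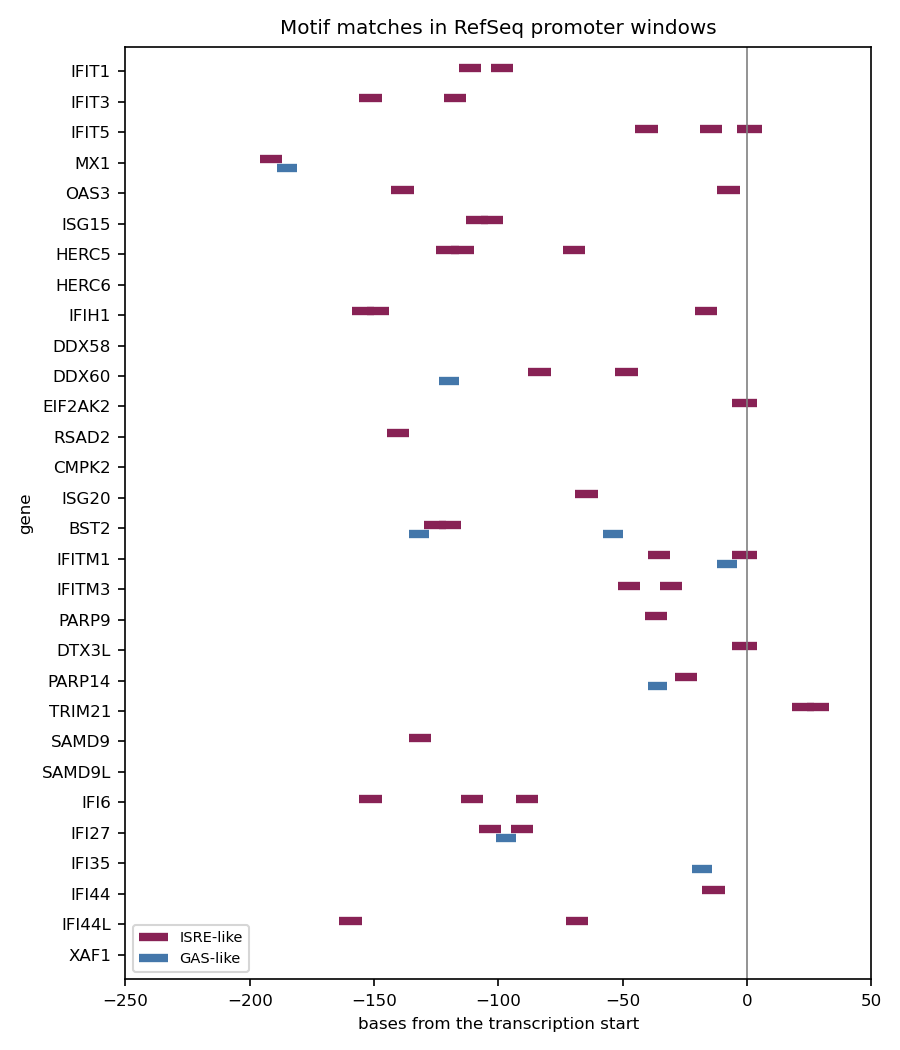
Position of ISRE-like and GAS-like matches in the RefSeq promoter windows of the 30 matched ISGs, in bases from the transcription start (vertical line), for the window with the most matches of each gene. ISRE-like matches are in 24 rows and GAS-like matches in 7.

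Some members of the IFIT family bind viral RNA that lacks host-type marks at its 5′ end. All 4 IFIT genes of the list rose with cytokines. IFIT3 (chr10:89327307-89377473, GENCODE release 44 on GRCh38) was at 4.86 and 4.42 FPKM in normal hIECs and at 56.1 and 54.3 FPKM in inflamed hIECs, 11.9-fold between the means. Its log2 difference was 3.32 ± 0.056 (SE, limma adjusted p = 1.85e-08). IFIT2 was at 1.20 and 0.99 FPKM in normal and at 9.45 and 9.78 FPKM in inflamed hIECs, 8.81-fold, with a log2 difference of 2.35 ± 0.074 (adjusted p = 4.2e-07). The 2 groups stood far apart for both genes. IFIT5 and IFIT1 rose less, 2.73-fold and 2.55-fold. IFIT1 lies in the same cluster on chromosome 10 and was at 2.33 and 2.10 FPKM in normal and at 5.54 and 5.78 FPKM in inflamed hIECs (log2 difference 1.05 ± 0.096, adjusted p = 8.28e-05).

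MX1 encodes a dynamin-like GTPase that traps viral nucleocapsids. It was at 0.42 and 0.63 FPKM in normal hIECs and at 15.3 and 15.9 FPKM in inflamed hIECs, 29.8-fold, with a log2 difference of 3.45 ± 0.094 (adjusted p = 1.98e-07). The OAS enzymes make 2′-5′ oligoadenylates that switch on RNase L. OAS2 was listed at 0 in both normal libraries and was at 12.99 and 12.5 FPKM in inflamed hIECs, so no fold is given, and limma called it higher (adjusted p = 2.61e-08). OAS3 was at 0.27 and 0.34 FPKM in normal and at 9.81 and 10.5 FPKM in inflamed hIECs, 33.5-fold, with a log2 difference of 3.10 ± 0.077 (adjusted p = 1.17e-07).

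ISG15 is attached to proteins much like ubiquitin. HERC5 is its ligase in human cells, HERC6 a related ligase, and USP18 removes it and dampens interferon receptor signaling. All 4 rose. ISG15 was already at 74.2 and 70.5 FPKM in normal hIECs and reached 188 and 195 FPKM in inflamed hIECs, 2.65-fold, with a log2 difference of 1.39 ± 0.054 (adjusted p = 1.04e-06). USP18 went from 1.93 and 1.68 FPKM to 10.3 FPKM in both inflamed libraries, 5.71-fold, with a log2 difference of 2.01 ± 0.067 (adjusted p = 5.43e-07). HERC5 and HERC6 stayed low, at 1.62 to 2.29 FPKM in inflamed hIECs. Of the 100-base windows in USP18 transcripts, 15.5% also occur in other genes of GENCODE release 44, so its FPKM is uncertain to that extent.

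The RNA sensors and the kinase PKR rose as a group, with 4 of 4 called higher. IFIH1 encodes MDA5, which senses long double-stranded RNA. It was at 1.56 and 1.38 FPKM in normal and at 11.03 and 11.1 FPKM in inflamed hIECs, 7.52-fold, with a log2 difference of 2.29 ± 0.069 (adjusted p = 3.44e-07). DDX60, a helicase linked to RNA sensing, rose 7.29-fold, from 0.67 and 0.78 FPKM to 5.15 and 5.45 FPKM (log2 difference 1.87 ± 0.074, adjusted p = 1.18e-06). DDX58, which encodes the sensor RIG-I, rose 5.04-fold, from 1.63 and 1.65 FPKM to 8.33 and 8.21 FPKM (log2 difference 1.81 ± 0.062, adjusted p = 6.17e-07). DDX58 overlaps another gene model, and 40.8% of its transcript windows are shared. EIF2AK2, the gene of PKR, which stops translation on double-stranded RNA, rose 2.37-fold.

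RSAD2 encodes viperin, which makes a chain-terminating nucleotide, CMPK2 a mitochondrial nucleotide kinase, and ISG20 an exonuclease. RSAD2 was listed at 0 in both normal libraries and was at 2.43 and 2.10 FPKM in inflamed hIECs, and limma called it higher (adjusted p = 3.29e-05). CMPK2 rose 5.48-fold, from 0.80 and 0.63 FPKM to 3.699 and 4.13 FPKM (log2 difference 1.52 ± 0.088, adjusted p = 8.61e-06). ISG20 was listed at 0 in both normal libraries and was also called, at 1.29 and 1.67 FPKM. RSAD2 and CMPK2 overlap head to head on opposite strands, and the libraries do not keep strand.

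The membrane restriction factors were the most abundant ISGs in normal hIECs, and the 3 IFITM genes among them had the smallest cytokine differences of the list. BST2 encodes tetherin, which holds budding virions at the cell surface. It was at 138 and 131 FPKM in normal and at 509.8 and 530.1 FPKM in inflamed hIECs, 3.86-fold, with a log2 difference of 1.94 ± 0.047 (adjusted p = 1.05e-07). IFITM1, IFITM2 and IFITM3 are neighbors on chromosome 11 and block viral fusion at the surface or in endosomes. IFITM1 was at 272 and 336 FPKM in normal and at 491 FPKM in both inflamed libraries, 1.61-fold, with a log2 difference of 0.70 ± 0.09 (adjusted p = 0.000462). IFITM3 was at 801 and 977 FPKM in normal and at 1315 and 1343 FPKM in inflamed hIECs, 1.5-fold (log2 difference 0.59 ± 0.088, adjusted p = 0.000977). IFITM2 was at 243 and 323 FPKM in normal and at 245 and 258 FPKM in inflamed hIECs, with overlapping groups and a log2 difference of -0.16 ± 0.12 (adjusted p = 0.289). For all 3 IFITM genes, normal replicate 2 was the higher normal library. Of their transcript windows, 17.9% in IFITM1, 6.81% in IFITM2 and 8.26% in IFITM3 also occur in other genes. For each of the 3, these include the other IFITM genes, so their values may not be fully independent.

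PARP9 and DTX3L act as a pair in ubiquitination, and PARP14 is a mono-ADP-ribosyltransferase. PARP14 was at 3.19 and 2.98 FPKM in normal and at 29.1 and 30.1 FPKM in inflamed hIECs, 9.58-fold, with a log2 difference of 2.90 ± 0.056 (adjusted p = 3.16e-08). PARP9 rose 6.12-fold, from 4.77 and 4.17 FPKM to 27.4 and 27.3 FPKM (log2 difference 2.38 ± 0.067, adjusted p = 2.39e-07), and DTX3L 6.55-fold. PARP9 and DTX3L overlap head to head on opposite strands. The ligase TRIM22 went from 6.58 and 5.10 FPKM to 50.9 FPKM in both inflamed libraries, 8.71-fold (log2 difference 2.93 ± 0.094, adjusted p = 4.64e-07). TRIM21, a cytosolic antibody receptor and ligase, went from 14.2 and 13.7 FPKM to 34.1 and 35.6 FPKM, 2.5-fold (log2 difference 1.26 ± 0.052, adjusted p = 1.43e-06).

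SAMD9 and SAMD9L lie side by side on chromosome 7 and restrict poxviruses. SAMD9L rose from 0.42 and 0.36 FPKM to 12.1 and 11.8 FPKM, 30.6-fold (log2 difference 3.22 ± 0.069, adjusted p = 5.51e-08), and SAMD9 from 0.61 and 0.62 FPKM to 3.84 FPKM in both libraries, 6.22-fold (log2 difference 1.58 ± 0.073, adjusted p = 2.64e-06). On log2(FPKM + 1), the widest difference of the list was that of IFI27, a small mitochondrial ISG (chr14:94104836-94116695). It was at 1.57 and 1.77 FPKM in normal and at 304 and 303 FPKM in inflamed hIECs, 182-fold, with a log2 difference of 6.84 ± 0.10 (adjusted p = 1.04e-08). XAF1, a pro-apoptotic gene, was listed at 0 in both normal libraries and was at 22.9 and 31.8 FPKM in inflamed hIECs. No fold is given, and its log2 difference of 4.81 ± 0.13 was called higher by limma (adjusted p = 2.27e-07). For a gene at 0, that difference depends on the 1 added to FPKM, and so does its rank below IFI27. IFI35, IFI44, IFI44L and IFI6 were all called higher as well, with folds between 3.6 (IFI6) and 8.46 (IFI35).

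The same comparison in the presence of PM10, between the means of the other 4 libraries, gave a similar count. Both comparisons took their spread from 1 fit of all 8 libraries, so their p-values are not independent. Of 35 ISGs, 33 were higher in inflamed hIECs with PM10 than in normal hIECs with PM10 and 1 was lower (97.1% called, against 65.4% of all tested genes, 25.8% higher and 39.6% lower). The median log2 difference was 1.93, against -0.11 for all tested genes. IFI27 had the widest difference again, at 0.68 and 1.13 FPKM against 303 and 301 FPKM (log2 difference 7.32 ± 0.10, adjusted p = 7.94e-09). IFITM2 was the lower one, at 216 and 235 FPKM against 152 and 155 FPKM (log2 difference -0.55, adjusted p = 0.00487). IFITM1 was not called, at 257 and 261 FPKM against 289 and 300.5 FPKM (log2 difference 0.18, adjusted p = 0.108). IFITM3 (0.27, adjusted p = 0.0272) and IFIT1 (0.35, adjusted p = 0.0145) were called higher by small differences, and both calls were lost under some of the alternative settings.

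**Figure D3:**
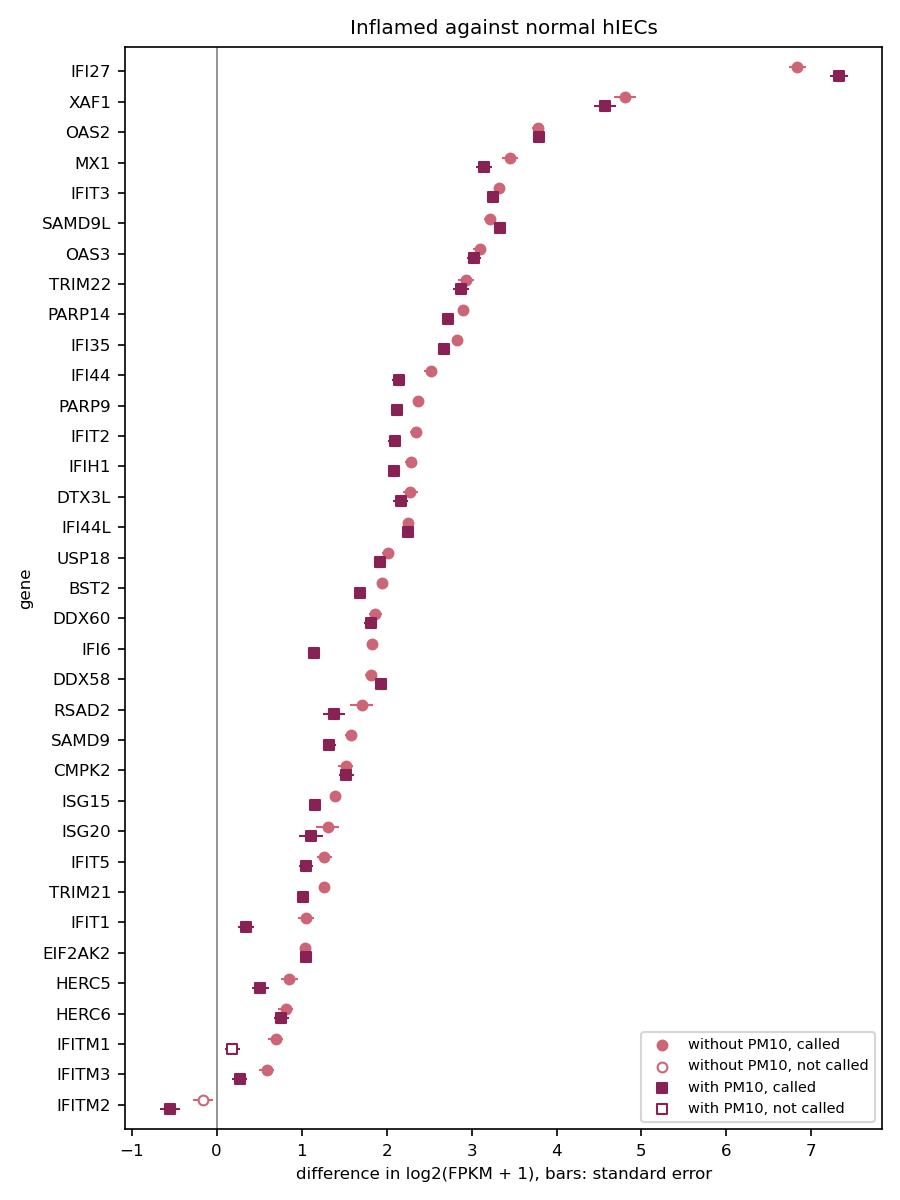
Log2 difference (difference in log2(FPKM + 1), bars are the standard error) between inflamed and normal hIECs for the 35 tested ISGs, without PM10 (circles, 2 libraries against 2) and with PM10 (squares, the other 2 against 2). Filled symbols are called by limma. All symbols but those of IFITM2 lie above 0, and the order runs from IFI27 (6.84 and 7.32) to IFITM2 (-0.16 and -0.55).

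The genes upstream of the list were followed in 58 other genes of the interferon pathway, of which 57 had a row and 41 were tested. Of 10 interferon ligands, 9 were listed at 0 in all 8 libraries. IFNE, an epithelial type I interferon, was at 0.87 and 0.64 FPKM in inflamed hIECs, at 0 and 0.30 FPKM in inflamed hIECs with PM10 and at 0 elsewhere, and none of the ligands reached the minimum for testing. The IFNγ given to the medium is a protein and does not count in these values. In inflamed against normal hIECs, 34 of the 41 pathway genes were higher and 3 were lower (90.2% called, against 56.2% of all tested genes), with a median log2 difference of 0.89.

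Of 5 tested receptor genes, 3 were higher, 1 was lower and 1 was not called, with a median log2 difference of 0.54. IFNAR1 was at 5.66 and 5.40 FPKM in normal and at 9.73 and 9.80 FPKM in inflamed hIECs (log2 difference 0.72 ± 0.064, adjusted p = 7.11e-05). IFNAR2, the other chain of the type I receptor, and IL10RB, a chain of the type III receptor, had log2 differences of 0.58 and 0.54. IFNGR2, a chain of the IFNγ receptor, was lower (log2 difference -0.26, adjusted p = 0.0194). Among kinases, STATs and IRFs, 6 of 9 were higher and 1, IRF3, was lower. IRF1 was at 4.21 and 3.09 FPKM in normal and at 81.2 and 81.3 FPKM in inflamed hIECs (log2 difference 4.15 ± 0.11, adjusted p = 1.66e-07). IRF7, which drives interferon genes, had a log2 difference of 1.31.

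All 5 tested sensing adaptors and sensors were higher. The kinase gene IKBKE had a log2 difference of 1.39, the adaptor gene TICAM1 0.56, and TLR3, a receptor of double-stranded RNA, was listed at 0 without cytokines and was at 1.29 and 1.37 FPKM in inflamed hIECs. The enzymes that attach ISG15 were all higher, the E2 enzyme UBE2L6 by 1.49, the ligase TRIM25 by 1.00 and the E1 enzyme UBA7 by 0.35 on the log2 scale. All 15 tested other antiviral effectors were higher, with EPSTI1 (3.46), SP100 (2.35) and PARP12 (2.18) among them. Of 4 negative regulators, SOCS1 (1.47) and PTPN2 (0.70) were higher, and SOCS3 was lower (-0.84, adjusted p = 4.41e-05), at 17.8 and 20.02 FPKM in normal and 9.91 and 10.4 FPKM in inflamed hIECs. With PM10 in both groups, 33 of the 41 pathway genes were higher and 4 were lower (90.2% called, against 65.4% of all tested genes). UBA7 was among the lower ones (-0.29, adjusted p = 0.00156), a call that was lost after rescaling to TPM.

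PM10 alone moved the list little. In normal hIECs with PM10 against normal hIECs, 6 of 35 ISGs were higher and 1 was lower (20% called, against 9.23% of all tested genes, 5.51% higher and 3.72% lower). The median log2 difference was 0.16, against 0.06 for all tested genes, with 27 ISGs above 0, 6 below and 2 at 0, and no difference reached 1. The shares of all tested genes above and below 0 were not counted. This comparison shares the normal and the PM10-treated normal libraries with the cytokine comparisons above. The summed mesenchymal list was at 4420 to 4450 FPKM with PM10 against 5100 to 5110 FPKM without, with 3 of its 11 markers called lower and 1 higher, and its part in the ISG values was not tested.

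The 6 higher ISGs were IFIT3, BST2, PARP9, TRIM21, IFI6 and IFI35. IFIT3 was at 6.46 and 6.38 FPKM with PM10 against 4.86 and 4.42 FPKM without, 1.38-fold (log2 difference 0.40 ± 0.056, adjusted p = 0.00937). IFI35 was at 6.02 and 5.74 FPKM against 4.61 and 4.57 FPKM, 1.28-fold (0.30 ± 0.052, adjusted p = 0.0188). TRIM21 was at 16.9 and 17.7 FPKM against 14.2 and 13.7 FPKM, 1.24-fold (0.29 ± 0.052, adjusted p = 0.0201). In these 3 genes the libraries of a group lay close together and the groups did not overlap. BST2 rose 1.17-fold to 156 and 159.5 FPKM (0.23, adjusted p = 0.029), PARP9 1.29-fold to 5.61 and 5.95 FPKM (0.31, adjusted p = 0.0332), and IFI6 1.21-fold to 60.1 and 58.9 FPKM (0.28, adjusted p = 0.0332). IFI27 fell to 0.68 and 1.13 FPKM from 1.57 and 1.77 FPKM (log2 difference -0.49 ± 0.10, adjusted p = 0.0305). These are low values, and in inflamed hIECs IFI27 was at 301 to 304 FPKM with and without PM10.

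None of these 7 calls held under every alternative setting. With only the normal libraries and the PM10-treated normal libraries in the fit, limma called 0 of the ISGs, and at the same setting it called 23 of all 14206 genes. Leaving out a library of either group leaves 1 library there, whose spread is taken from the other groups. Without normal replicate 1, 13 ISGs were called higher and 4 lower, and calls over all genes rose from 1311 to 2627, 1876 of them higher. Without normal replicate 2, 4 ISGs were higher and 725 of all genes were called. Leaving out PM10-treated normal replicate 1 gave 0 ISGs and 194 genes in all, and leaving out replicate 2 gave 1 lower ISG and 221 genes. Leaving out any 1 library with cytokines gave 3 higher ISGs and 636 to 687 genes in all. In the pathway list, 8 of 41 genes were higher and none was lower (19.5% called, against 9.23% of all tested genes), and none of the 5 calls followed under the alternatives held under every one. They include IRF1 (0.44, adjusted p = 0.0488), at 5.61 and 4.94 FPKM against 4.21 and 3.09 FPKM.

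In inflamed hIECs, PM10 left most ISGs uncalled, and those called higher were about as frequent as over all tested genes. In inflamed hIECs with PM10 against inflamed hIECs, 2 of 35 ISGs were higher and 6 were lower (22.9% called, against 15.2% of all tested genes, with 6.22% called higher and 9.02% lower). The median log2 difference was 0.00, with 17 ISGs above 0, 17 below and 1 at 0, and 17 lay within 0.1 of 0. The lower ISGs were IFITM1, IFITM2, IFITM3, IFI6, IFIT1 and ISG15, and the higher ones were IFIT3 and DDX58. This comparison shares its libraries with the cytokine comparisons but none with that of PM10 in normal hIECs, though the spread came from the same fit.

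The 3 IFITM genes, which share part of their transcript windows with each other, had the largest falls of the list. IFITM1 was at 289 and 300.5 FPKM with PM10 against 491 FPKM in both libraries without, 60.0% of the level (log2 difference -0.74 ± 0.09, adjusted p = 0.00292). IFITM2 was at 152 and 155 FPKM against 245 and 258 FPKM, 61.2% (-0.70 ± 0.12, adjusted p = 0.01). IFITM3 was at 964 and 953 FPKM against 1315 and 1343 FPKM, 72.1% (-0.47 ± 0.088, adjusted p = 0.0141). In each of the 3, both libraries with PM10 lay below both without. With PM10, IFITM1 and IFITM3 in inflamed hIECs lay within the range of the normal libraries, and IFITM2 was below it. IFITM1 was called lower under all 18 alternative settings, with adjusted p between 0.000187 and 0.0292, whereas IFITM2 and IFITM3 lost the call when any 1 of the 4 libraries compared was left out (adjusted p up to 0.0672 and 0.0833).

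IFI6, which encodes a membrane protein that protects against flaviviruses, fell to 136 and 130.1 FPKM from 173 and 180.4 FPKM, 75.3% of the level (log2 difference -0.41 ± 0.059, adjusted p = 0.00574). It was called lower under all 18 alternatives, with adjusted p between 0.00233 and 0.0498. IFI6 shares 10.7% of its transcript windows with a neighboring noncoding gene. IFIT1 fell to 3.81 and 4.63 FPKM from 5.54 and 5.78 FPKM (-0.36 ± 0.096, adjusted p = 0.0479), and ISG15 to 171 and 158.5 FPKM from 188 and 195 FPKM (-0.22 ± 0.054, adjusted p = 0.0368). Both calls lie close to the threshold and were lost under 11 and 10 of the 18 alternatives.

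IFIT3 moved the other way from IFIT1, its neighbor in the cluster. It was at 69.6 and 70.0 FPKM with PM10 against 56.1 and 54.3 FPKM without, 1.26-fold (log2 difference 0.33 ± 0.056, adjusted p = 0.00984), and lost the call when any 1 of the 4 libraries compared was left out. IFIT2 was at 9.48 and 9.75 FPKM against 9.45 and 9.78 FPKM, and IFIT5 at 11.1 and 11.9 FPKM against 11.9 and 11.3 FPKM, with overlapping groups in both. DDX58 rose to 9.66 and 10.1 FPKM from 8.33 and 8.21 FPKM, 1.2-fold (0.23 ± 0.062, adjusted p = 0.0458), and was called under 6 of the 18 alternatives. The other tested ISGs were not called, and their log2 differences lay between those of XAF1 (-0.23) and EIF2AK2 (0.15).

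**Figure D4:**
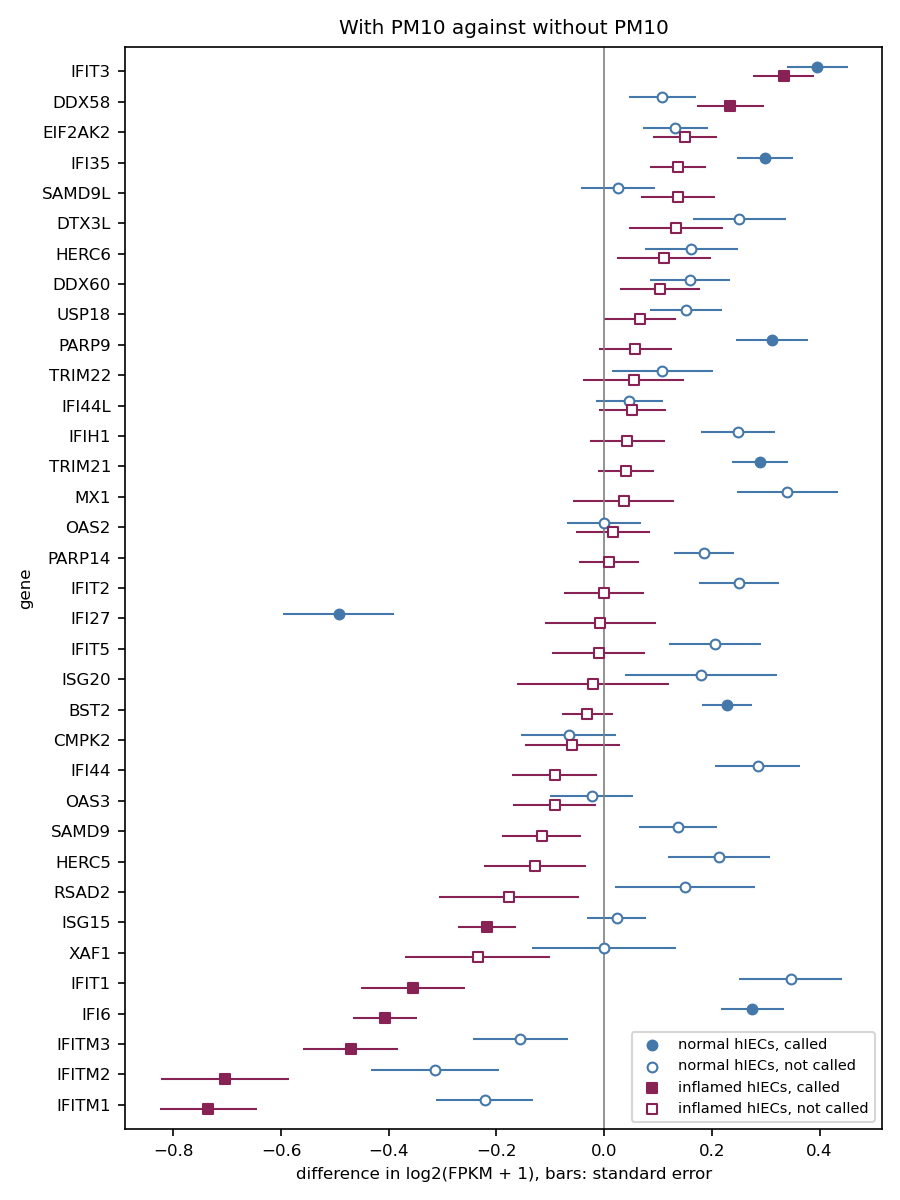
Log2 difference (difference in log2(FPKM + 1), bars are the standard error) with PM10 against without, for the 35 tested ISGs in normal hIECs (circles, 2 libraries against 2) and inflamed hIECs (squares, the other 2 against 2). Filled symbols are called by limma. IFIT3 is filled on the right in both, and IFITM1 (-0.74), IFITM2 (-0.70) and IFITM3 (-0.47) are lowest in inflamed hIECs.

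In the pathway list, 3 of 41 genes were higher and 4 were lower with PM10 in inflamed hIECs (17.1% called, close to the 15.2% of all tested genes). Of the 3 enzymes that attach ISG15, 2 were lower and TRIM25 was not called, at 10.2 and 10.6 FPKM with PM10 against 8.31 and 8.85 FPKM without (log2 difference 0.25). UBA7, the E1 enzyme of ISG15, was at 35.4 and 36.1 FPKM with PM10 against 60.9 and 63.7 FPKM without (log2 difference -0.79 ± 0.05, adjusted p = 0.000238), and it was called under all 18 alternatives. With PM10 it was below the normal libraries too, which were at 49.96 and 47.3 FPKM. UBE2L6 was at 136 and 142.5 FPKM against 161 and 159 FPKM (-0.20 ± 0.044, adjusted p = 0.0263), with the call kept under 9 of 18 alternatives. SOCS3 fell by 0.44 on the log2 scale (adjusted p = 0.0072), a call lost without inflamed replicate 2 or without PM10-treated inflamed replicate 1. The leukocyte marker CD68 rose with PM10 in inflamed hIECs, from 0.40 and 0.33 FPKM to 1.11 and 1.83 FPKM (adjusted p = 0.021), while CD14, CD3E, ITGAM and ITGAX were at 0. The summed mesenchymal list was at 5120 to 5130 FPKM with PM10 against 5790 to 5860 FPKM without, with 6 of its 11 markers called lower and 1, LUM, higher. Its part in the ISG values was not tested.

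The interaction term compares the log2 difference made by PM10 in inflamed hIECs with that in normal hIECs, which is also the change of the cytokine difference under PM10. It was called for 2 of 35 ISGs, both lower (5.71%, against 6.6% of all tested genes, 2.11% higher and 4.48% lower). The term lay below 0 for 28 ISGs and above 0 for 7, with a median of -0.21 against -0.06 for all tested genes. How many of all tested genes lay below 0 was not counted, so the direction is not read as a trait of the list. IFIT1 had a PM10 difference of 0.35 in normal hIECs, which was not called (adjusted p = 0.0652), and -0.36 in inflamed hIECs, with an interaction of -0.70 ± 0.14 (adjusted p = 0.0296). The call was kept under 10 of 17 alternatives. IFI6 was called in opposite directions, 0.28 in normal and -0.41 in inflamed hIECs, with an interaction of -0.68 ± 0.083 (adjusted p = 0.00619). It was called under all 17 alternatives, with adjusted p between 0.00333 and 0.039.

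For the IFITM genes the interaction was not called. It was -0.51 for IFITM1 (adjusted p = 0.0583), -0.39 for IFITM2 (adjusted p = 0.215) and -0.31 for IFITM3 (adjusted p = 0.181). Their PM10 differences in normal hIECs were -0.22, -0.31 and -0.16 and were not called, with normal replicate 2 above normal replicate 1 in all 3 genes. For IFIT3 the PM10 differences in normal and inflamed hIECs were both called higher, and the interaction was -0.06. In the pathway list, 4 of 41 genes had a called interaction and all were lower (9.76% called, against 6.6% of all tested genes, 4.48% lower), namely UBA7 (-0.64, adjusted p = 0.00408), UBE2L6 (-0.29, adjusted p = 0.0412), EPSTI1 (-0.31, adjusted p = 0.0484) and the receptor kinase gene TYK2 (-0.49, adjusted p = 0.0287), which was chosen after its values were seen. UBA7 was called under all 17 alternatives, TYK2 under 11, EPSTI1 under 5 and UBE2L6 under 4.

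**Figure D5:**
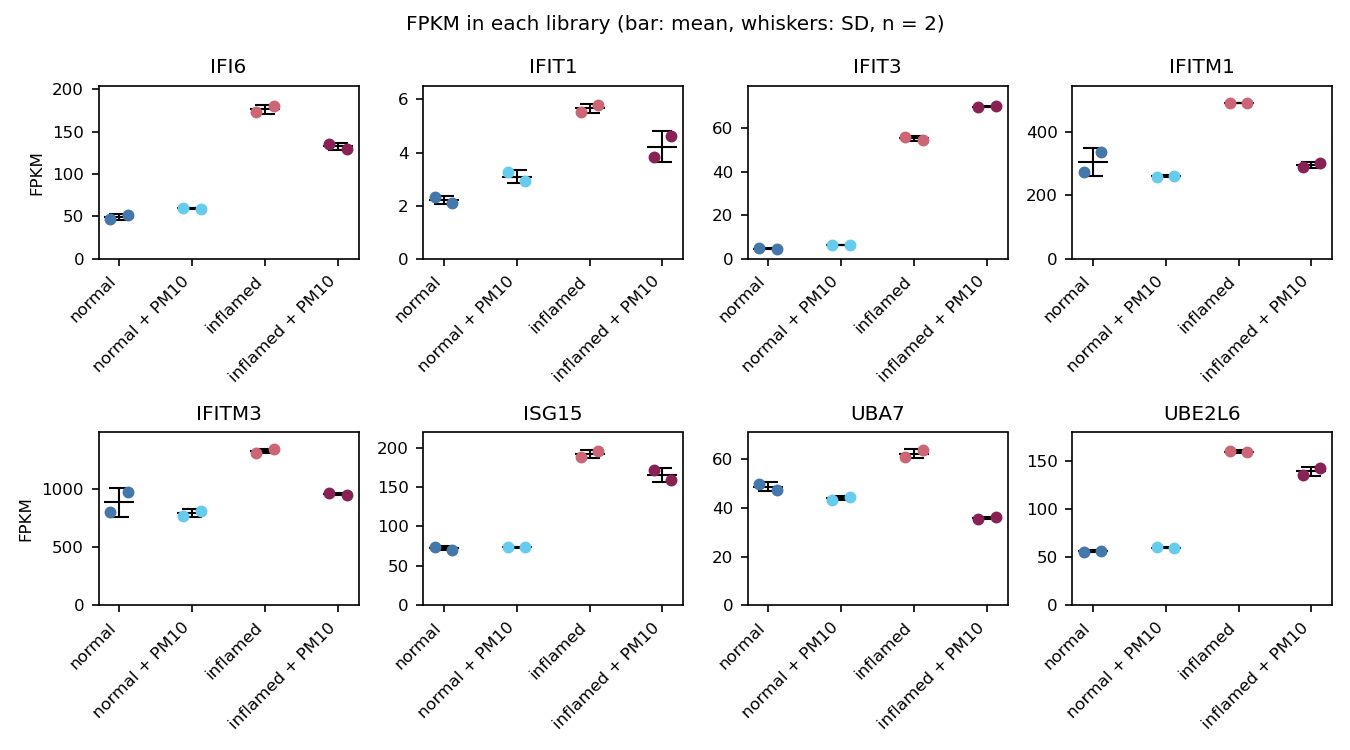
FPKM (linear axis from 0) of 6 ISGs and the ISG15 enzymes UBA7 and UBE2L6 in each library (points) by group, with the mean (bar) and SD (whiskers) of n = 2. UBA7 in inflamed hIECs with PM10, at 35.4 and 36.1 FPKM, is below all other groups, and IFIT3, at 69.6 and 70.0 FPKM, is above them.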

How the data were processed

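The authors prepared poly-A selected, non-strand-specific libraries, removed adapters with Cutadapt 3.7, trimmed with Sickle 1.33 at a Phred score of 20, kept reads of at least 50 bases, used HISAT2 2.2.1 to align pairs of 100 bases to GRCh38, and ran StringTie 2.2.0 to quantify genes. The deposited values were FPKM, 1 per gene and library. The annotation release was not given in the sources used here, and positions and overlaps came from GENCODE release 44, which held 99.5% of the gene identifiers. Groups came from the labels. Some genes of the lists are not reported here. log2(FPKM + 1) was compared with limma 3.58.1 (R 4.3.3, variance trend, all 8 libraries) for genes with at least 1 FPKM in 2 libraries, with p-values adjusted by Benjamini-Hochberg within each of 5 comparisons and a threshold of 0.05. The fit was tested on simulated data. Named genes were the 2 with the widest cytokine difference in each role, all called in a PM10 comparison or the interaction, those not raised by cytokines, and up to 3 per pathway list. Members and lists were chosen with earlier results of these data known. Alternatives covered the pseudocount, filters, scaling, trend, replicate block, groups in the fit and each library left out. Tables and plots used Python 3.11.15, pandas 2.3.3 and matplotlib 3.10.9.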

Additional observations from a re-analysis of the deposited data

Results flagged for a closer look

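Limma's interaction term, with an adjusted p-value under 0.05, was called for 2 of 35 ISGs (5.71%) and 4 of 41 pathway genes (9.76%). Over all tested genes the share was 6.6%, so that of the ISGs was no higher. All 6 terms were negative, as were 637 of 937 called over all genes, and 539 of 992 after median centring. Among the antiviral ISGs these were IFIT1, with an interaction of -0.70 on the log2 scale (adjusted p = 0.0296), and IFI6, with -0.68 (adjusted p = 0.00619). Among the other pathway genes these were UBA7 with -0.64 (adjusted p = 0.00408), TYK2 with -0.49 (adjusted p = 0.0287), EPSTI1 with -0.31 (adjusted p = 0.0484) and UBE2L6 with -0.29 (adjusted p = 0.0412). IFI6 and UBA7 kept the call under all 17 alternatives, TYK2 under 11, IFIT1 under 10, EPSTI1 under 5 and UBE2L6 under 4. Their causes were not tested.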

How the results depend on the processing

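All 34 calls of inflamed against normal hIECs were kept under each of the alternatives that tested the gene, as were 32 of the 34 with PM10 present, the exceptions being IFIT1 and IFITM3. IFITM2, not called in inflamed against normal hIECs, had a log2 difference of -0.16 that turned to 0.045 without normal replicate 2 and was -0.362 without normal replicate 1, where it was called lower (adjusted p = 0.00387). The median log2 difference of the ISGs in inflamed against normal hIECs (1.94) was 2.59 with a pseudocount of 0.1, 2.28 with a minimum of 5 FPKM and 2.39 after rescaling to TPM. With PM10 present (1.93) these were 2.37, 2.10 and 2.28, and it was 1.81 with no filter and 2.01 after quantile normalization. For PM10 in normal hIECs the median (0.16) was 0.25 with a pseudocount of 0.1 and 0.26 as TPM. The count of called ISGs (7) was 4 as TPM and 0 with only the 2 groups compared. Over all genes, calls went from 1311 to 481 and 23 at these settings. For PM10 in inflamed hIECs the count (8) was 5 with no filter, as TPM, and with only the 2 groups compared. Over all genes, calls were 2165 in the main fit and 1878 (of 21400 tested), 1250 and 2108 at these settings. Leaving out 1 library at a time gave 34 to 35 calls for inflamed against normal hIECs, 32 to 35 with PM10 present, 0 to 17 for PM10 in normal hIECs, 2 to 8 for PM10 in inflamed hIECs and 1 to 5 for the interaction. With only ISGs above 0 in all 8 libraries, an alternative chosen after seeing the data, the medians of the cytokine comparisons were 1.94 and 1.93. Deviations of libraries with equal replicate numbers from their group means correlated between -0.00151 and 0.0793. Taken over all tested genes, weak ones included, this cannot decide whether equal numbers were paired. With the replicate block, limma called 34 and 34 ISGs in the cytokine comparisons, 7 and 6 in those of PM10 and 2 in the interaction. Over all 14206 tested genes it called 7957 and 9264, 1051 and 1966, and 762 in the same order. Over all tested genes, the share of higher calls for PM10 in normal hIECs was 59.7%, and 42.9% after median centring, and that for inflamed against normal hIECs was 46.1%, and 56.4% as TPM. Of 3502 alternative values of single genes, 3222 kept their direction and side of the threshold, 218 lost the call, 61 gained one and 1 reversed. The causes of these changes were not tested. With FPKM only, weak genes such as MX2, OASL, RSAD2 and ISG20 could not be given a counting error.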
